A study of Caenorhabditis elegans with 11 samples.

Results

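Larvae of Caenorhabditis elegans that carried the mutation smg-1(r861) were fed bacteria making double-stranded RNA against prp-6, and poly(A)-enriched RNA of the whole larvae was compared with that of smg-1(r861) larvae fed a clone against gfp. The genes are all 485 that stand in the 2 deposited tables of the smg-1 strain, 346 listed as higher and 139 listed as lower, out of 1106 entries (939 different genes) in the 6 tables of the series. They were taken by table and not by their own values in the prp-6 library. In the prp-6 group, larvae of strain TR1331 with the r861 allele were put on the prp-6 clone as synchronized L1 larvae, kept there for 24 h at 20 °C and collected at larval stage 3. The gfp group had the same strain, allele, start, time, temperature and stage, and its clone targets a jellyfish gene with no counterpart in the worm genome. The r861 allele was thus present in every smg-1 library, the control included. The same strain was also given prp-8 and prp-31 RNAi, and N2, the wild type, was given prp-6 and gfp RNAi on the same schedule. Those libraries are used below only beside prp-6 RNAi in smg-1.

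The protein PRP-6 is the worm form of Prp6, which in yeast and human cells bridges the U5 and U4/U6 particles of the tri-snRNP, the complex that enters the spliceosome before it becomes active. PRP-8 is the core of the U5 particle and PRP-31 a U4/U6 protein of the same complex. SMG-1 is the kinase that phosphorylates UPF1 (SMG-2 in worms) in nonsense-mediated mRNA decay, the pathway that removes mRNAs with an early stop codon, among them many made by faulty splicing. In smg-1 mutants such mRNAs are not removed by that pathway.

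Each group had 1 library, so no difference has a replicate check, no test was possible, and "higher" and "lower" describe these libraries. Values are the authors' FPKM, fragment counts scaled by library size and by the length of the transcript, a per-length unit. Folds are ratios of FPKM + 1. The submitters chose the genes on a comparison of all 3 knockdowns of the strain with gfp, which includes the prp-6 library, so the side on which a table lies is not a result. How far each gene stood from gfp with prp-6, and how that compared with the other clones and with N2, is described here. The depth of each library is unknown beyond a minimum that the labels state. The genes prp-6, prp-8 and smg-1 are in neither table, so the depletion of prp-6 could not be checked. The target prp-31 had 24.0 FPKM in the prp-31 RNAi library, below its 95.3 FPKM with prp-6 RNAi, 122 with prp-8 RNAi and 31.4 with gfp RNAi.

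Most genes of the higher table stood moderately above gfp with prp-6 RNAi. The median log2 fold was 0.89 (quartiles 0.67 and 1.22), and the median level was 15.8 FPKM with prp-6 RNAi and 6.71 with gfp RNAi. At least a 2-fold excess was seen for 142 of the 346 genes, which is 41% of the table, and at least a 4-fold excess for 21. A further 61 genes were under 1.5-fold, of which 5 were below gfp and 2 are listed at 0 in both libraries. In the authors' deposited table, 130 genes of the higher list have a q-value below 0.05 for the pooled knockdowns. Of these, 101 were at least 2-fold above gfp with prp-6. That q-value comes from a comparison that includes the prp-6 library, so the overlap is partly built in and is no independent check.

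The lower table was somewhat more uniform with prp-6 RNAi. Its median log2 fold was −1.08 (quartiles −1.35 and −0.87), with a median level of 10.3 FPKM with prp-6 RNAi against 24.4 with gfp RNAi. At least 2-fold below gfp were 78 of the 139 genes, or 56.1%, and 126 were at least 1.5-fold below. None stood above gfp, and phy-2, a prolyl 4-hydroxylase gene, is listed at 0 in both libraries although its deposited pooled gfp value is 86.3 FPKM. Of the 37 lower genes with a q-value below 0.05 in the authors' deposited table, 32 had a prp-6 level at least 2-fold below gfp. Here too the q-value rests in part on the prp-6 library, so the overlap is partly built in.

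**Figure D1:**
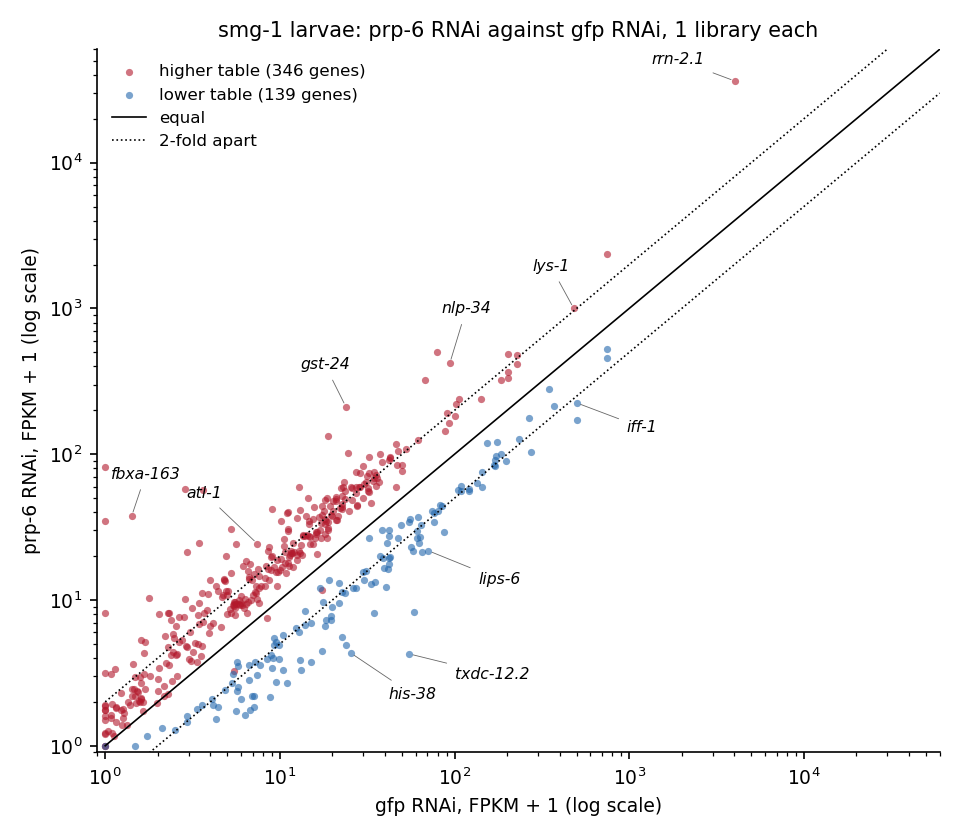
Level of each of the 485 genes in smg-1 larvae with prp-6 RNAi (vertical axis) against gfp RNAi (horizontal axis), in FPKM + 1 on log axes, 1 library each; the solid line marks equal levels and the dotted lines a 2-fold difference. Of the higher table (red) 142 of 346 points lie above the upper dotted line, and of the lower table (blue) 78 of 139 lie below the lower one.

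The higher table holds many genes for the splicing machinery itself, with folds close to those of the table as a whole. The splicing list holds 26 genes of the higher table and none of the lower one; with prp-6 RNAi all 26 were above gfp, by a median log2 fold of 1.0 (0.76 to 1.57) against 0.89 for the whole table, and 13 were at least 2-fold above it, beside 41% of the whole table. To order them by stage, 3 groups were drawn up after the values had been seen, so they are a description and support nothing. Together they hold 36 genes, of which 21 were at least 2-fold above gfp (41% in the whole table), with levels of 8.43 to 219 FPKM with prp-6 RNAi and 4.46 to 101 FPKM with gfp RNAi. By the authors' deposited table, 18 of the 36 have a q-value below 0.05 for the pooled knockdowns, beside 130 of 346 in the whole higher table.

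The tri-snRNP and its snRNAs come first. This group of 11 genes had a median log2 fold of 1.14 against 0.89 for the table, and 8 were at least 2-fold above gfp, beside 41% of the table. Besides prp-31, which was 2.97-fold above gfp, ddx-23 (F01F1.7), the worm form of the Prp28 helicase that helps release U1, had 63 FPKM with prp-6 RNAi, 86.7 with prp-8 RNAi and 36.1 with prp-31 RNAi, against 22.2 with gfp RNAi. The U5 GTPase gene eftu-2 (ZK328.2), whose yeast form is Snu114, had 117 FPKM after prp-6, 149 after prp-8 and 66.7 after prp-31 RNAi, against 45.4 after gfp RNAi. The level with prp-6 lay between those of the other 2 knockdowns in both genes, and the gfp level was the lowest. The gene snrp-200, for the Brr2 helicase that unwinds U4 from U6, was 2.32-fold above gfp, at 58.5 FPKM against 24.6. The kinase gene prpf-4 (F22D6.5), the worm form of the human kinase PRPF4B that phosphorylates PRPF6 and PRPF31, was 2.20-fold above it, at 74.7 against 33.5 FPKM. The snRNA-modifying enzymes were nearer the 2-fold line. The U6 uridylyltransferase gene usip-1 was 1.97-fold and the snRNA cap hypermethylase gene tgs-1 was 1.85-fold above gfp.

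Genes that act with U2 and the Sm ring, earlier in assembly, had a median log2 fold of 0.98, near the 0.89 of the table, and 4 of 8 were at least 2-fold above gfp, beside 41% of the table. The RNA helicase gene ddx-46, whose yeast form Prp5 helps U2 bind the branch point, had 42.5 FPKM with prp-6 RNAi, 66.5 with prp-8 RNAi and 27.8 with prp-31 RNAi, against 14.8 with gfp RNAi, a 2.76-fold excess with prp-6. The U2-associated factor gene cus-2 was 2.65-fold above gfp, at 28.5 against 10.1 FPKM. For the Sm gene snr-7 the values were 219 FPKM with prp-6 RNAi and 101 FPKM with gfp RNAi, the highest levels of the 36 genes in each of these libraries. The SF3B1 gene sftb-1, the SF3A1 gene prp-21 and the small U2AF subunit gene uaf-2 were 1.82-fold, 1.77-fold and 2.01-fold above gfp.

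Factors of the later, catalytic stages formed the largest of the 3 groups, and 9 of these 17 genes were at least 2-fold above gfp (41% in the whole table), with a median log2 fold of 1.15. The gene gkow-1 (R11A8.2), for a G-patch protein whose yeast form Spp2 activates the Prp2 helicase, had the largest fold of the 36, 3.19-fold, at 40.4 FPKM with prp-6 RNAi, 60.1 with prp-8 RNAi and 24.2 with prp-31 RNAi, against 12 with gfp RNAi. The helicase genes mog-4 (Prp2) and mog-5 (Prp22), first found through sperm and oocyte fate in the worm germline, were 2.22-fold and 2.32-fold above gfp. The genes bud-13, let-504 and sluh-7 were 2.77-fold, 2.63-fold and 2.55-fold above it; SLU7 in yeast acts in 3' splice site choice. The smallest fold in the group was that of syf-3, 1.69-fold, so the 17 genes spanned 1.69-fold to 3.19-fold. In all 36 genes the level with prp-6 RNAi was below that with prp-8 RNAi, at 0.587 to 0.918 times it. In the whole higher table only 37 of 346 genes were above their prp-8 level, so this order was common to most of the table. The gene syf-1 is listed at 0 in the prp-31 library, with 52.9, 79.8 and 26.2 FPKM in the prp-6, prp-8 and gfp libraries.

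**Figure D2:**
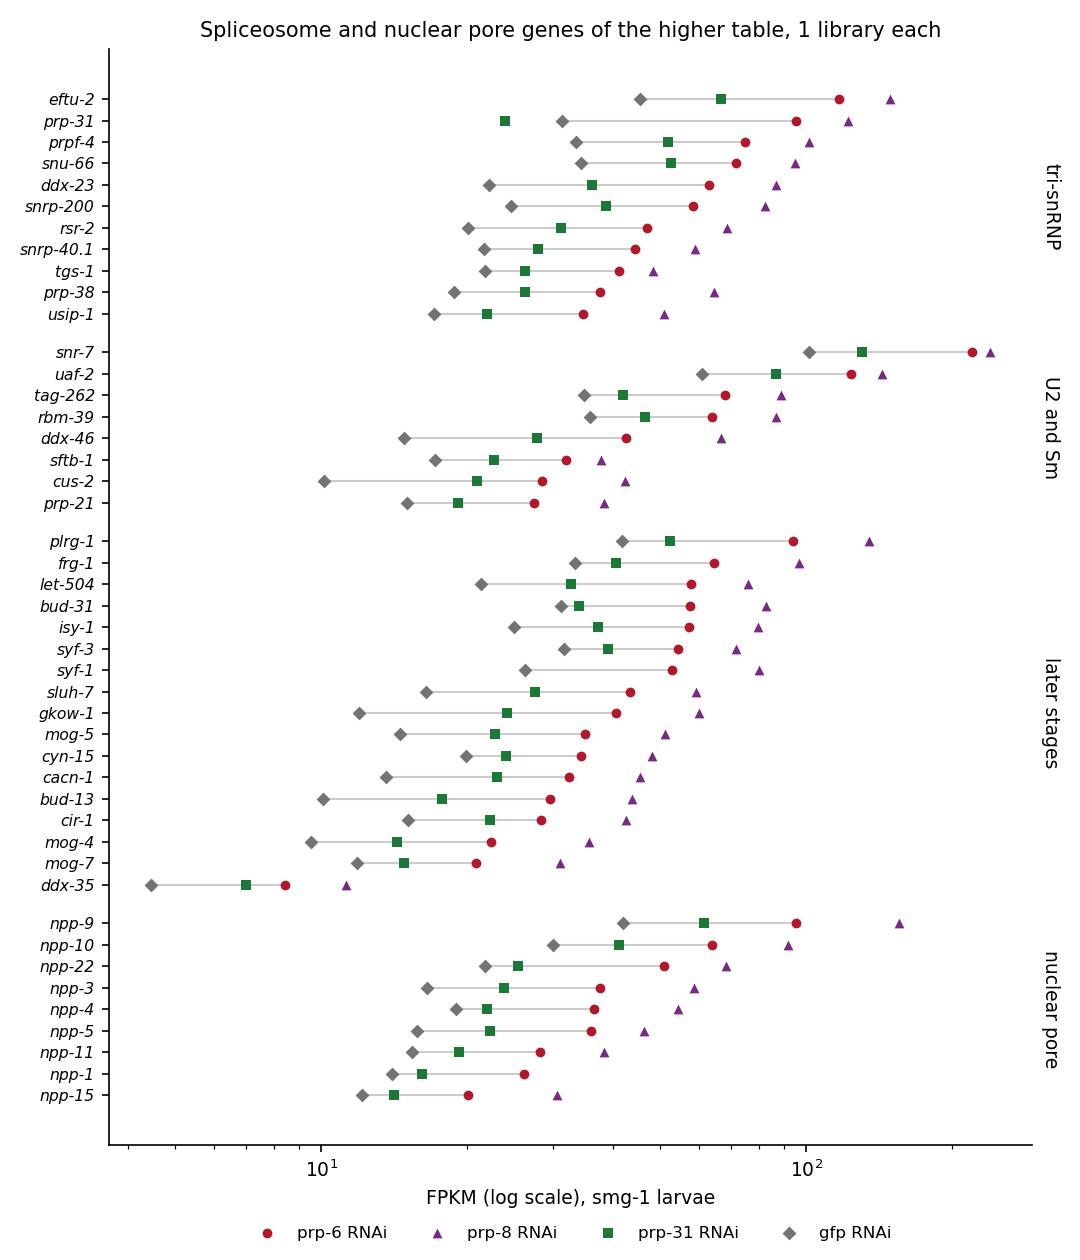
FPKM (log axis) of the 36 spliceosome genes in 3 groups and of 9 nuclear pore genes in the 4 smg-1 libraries, 1 library each; the grey line joins the prp-6 and gfp values, and values listed at 0 (syf-1 with prp-31, npp-1 with prp-8) are not drawn. In every gene shown the prp-6 circle lies right of the gfp diamond, and it lies left of the prp-8 triangle wherever one is drawn.

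Genes that carry mRNA out of the nucleus had folds much like those of the spliceosome genes. The nuclear transport list holds 10 genes of the higher table and none of the lower, with a median log2 fold of 1.10, and 6 were at least 2-fold above gfp, beside 41% of the whole table. Of these, 9 are nucleoporins, and the fold was within 1.61 to 2.28 for all 9. The gene npp-9, for the pore's cytoplasmic Nup358, had 95.1 FPKM with prp-6 RNAi, 155 with prp-8 RNAi and 61.4 with prp-31 RNAi, against 41.8 with gfp RNAi. The transmembrane ring gene npp-22 was 2.28-fold above gfp, at 50.8 against 21.7 FPKM. The mRNA export adaptor gene aly-1 was 2.22-fold above gfp, at 104 against 46.4 FPKM. In a group chosen after the values were seen, the exon junction complex helicase gene eif-4A3, the nuclear poly(A)-binding gene pabp-2 and the cap-binding gene ncbp-1 were 2.24-fold, 2.30-fold and 1.86-fold above gfp. The value of npp-1 is uncertain, because it is listed at 0 with prp-8 although its deposited pooled knockdown level is 28.6 FPKM.

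Transcription genes were in the higher table with smaller folds. The list of RNA polymerase and transcription genes has 7 members there and a median log2 fold of 0.82, below the table's 0.89. The largest polymerase II subunit gene, ama-1, was 1.65-fold above gfp with prp-6 RNAi and the small shared subunit gene rpb-5 2.1-fold. The Integrator complex trims the 3' ends of snRNA transcripts, and 4 of its genes, ints-2, ints-4, ints-6 and ints-8, were 1.59-fold, 1.83-fold, 1.77-fold and 2.16-fold above gfp; the grouping was made after their values were seen. Of the mRNA decay list, 2 genes were in the higher table, the exosome helicase gene mtr-4 at 1.78-fold and smgl-2 at 1.57-fold. Neither passed 2-fold, beside 41% of the whole table that did.

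The DNA damage list had 2 members, both at least 2-fold above gfp, beside 41% of the whole higher table. The checkpoint kinase gene atl-1, the worm form of ATR, was 3.27-fold above gfp with prp-6 RNAi, at 23.3 FPKM, or 0.472 times its prp-8 level on the FPKM + 1 scale. The break repair gene rad-50 was 2.78-fold above gfp, at 16.2 against 5.16 FPKM. Of the 5 apoptosis list members, only ced-11, a TRPM-like channel gene, was at least 2-fold above gfp, beside 41% of the whole higher table. The gene ced-11 had 4.88 FPKM with prp-6 RNAi, 2.76 with prp-8 RNAi and 1.86 with prp-31 RNAi, against 1.46 with gfp RNAi. It was the only one of the 5 whose level was highest with prp-6. The apoptosome gene ced-4 and the phospholipid scramblase gene ced-8 were 1.59-fold and 1.86-fold above gfp, and tra-1, a sex determination factor that also controls egl-1, 1.78-fold. The BH3-only gene egl-1 had 0.963 FPKM after prp-6 and 7.11 after prp-8 RNAi, against 0.501 after gfp RNAi.

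Genes of detoxification, F-box proteins and immunity included some with large folds over gfp with prp-6 RNAi, and these lists were uneven. Of the 7 detoxification genes in the higher table, 5 were at least 2-fold above gfp (41% in the whole table), with a median log2 fold of 1.48 against 0.89 for the whole table. The glutathione S-transferase gene gst-24 was 8.87-fold above gfp and its neighbour gst-15 was 3.46-fold; the deposited intervals of the 2 genes lie 1656 bp apart on chromosome II, and related family members can share reads. The P-glycoprotein genes pgp-8 and pgp-1, for drug efflux pumps, were 5.81-fold and 2.78-fold above gfp. For pgp-8 the levels were 9.38 FPKM with prp-6 RNAi, 27.2 with prp-8 RNAi and 1.85 with prp-31 RNAi, against 0.789 with gfp RNAi. The glucuronosyltransferase gene ugt-39 was 2.61-fold above gfp. Another 4 members of the list, ugt-26, ugt-29, ugt-53 and pgp-5, were in the lower table, 3.00-fold, 2.41-fold, 2.02-fold and 2.16-fold below gfp.

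Among the 9 F-box and related genes of the higher table the median log2 fold was 0.75, below the 0.89 of the table, and 2 were at least 2-fold above gfp, beside 41% of the table. F-box proteins pick the targets of a ubiquitin ligase, and the family has many copies in worms. The gene fbxa-163 (C08E3.6, chromosome II, deposited interval 1610519 to 1610715) was 26.6-fold above gfp, the largest fold of any gene with a public name and a value above 0 in both libraries. Its neighbour fbxa-161, annotated as a pseudogene 2934 bp away, was 1.68-fold above gfp, and fbxa-158 was 2.76-fold above it.

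Immunity genes had a somewhat lower median with prp-6 than the table as a whole. Of 18 in the higher table, 5 were at least 2-fold above gfp (41% in the whole table), and the median log2 fold was 0.77 against 0.89. With prp-8 RNAi 17 of the 18 were at least 2-fold above gfp, near the 85.3% of the whole table. The C-type lectin gene clec-52 was 5.88-fold above gfp, with 29.9 FPKM with prp-6 RNAi, 77.7 with prp-8 RNAi and 6.14 with prp-31 RNAi, against 4.25 with gfp RNAi. The lysozyme gene lys-1 was 2.08-fold above gfp and its neighbour lys-2 1.65-fold. The pals genes, which respond to intracellular pathogens, had 6 members in the table and a median log2 fold of 0.47. Of the 6, pals-26 alone passed 2-fold, beside 41% of the whole table. This grouping was also made after values were seen. The gene pals-6 had 1.76 FPKM with prp-6 RNAi, 9.85 with prp-8 RNAi and 1.47 with prp-31 RNAi, against 1.40 with gfp RNAi, so its prp-6 level lay near gfp.

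**Figure D3:**
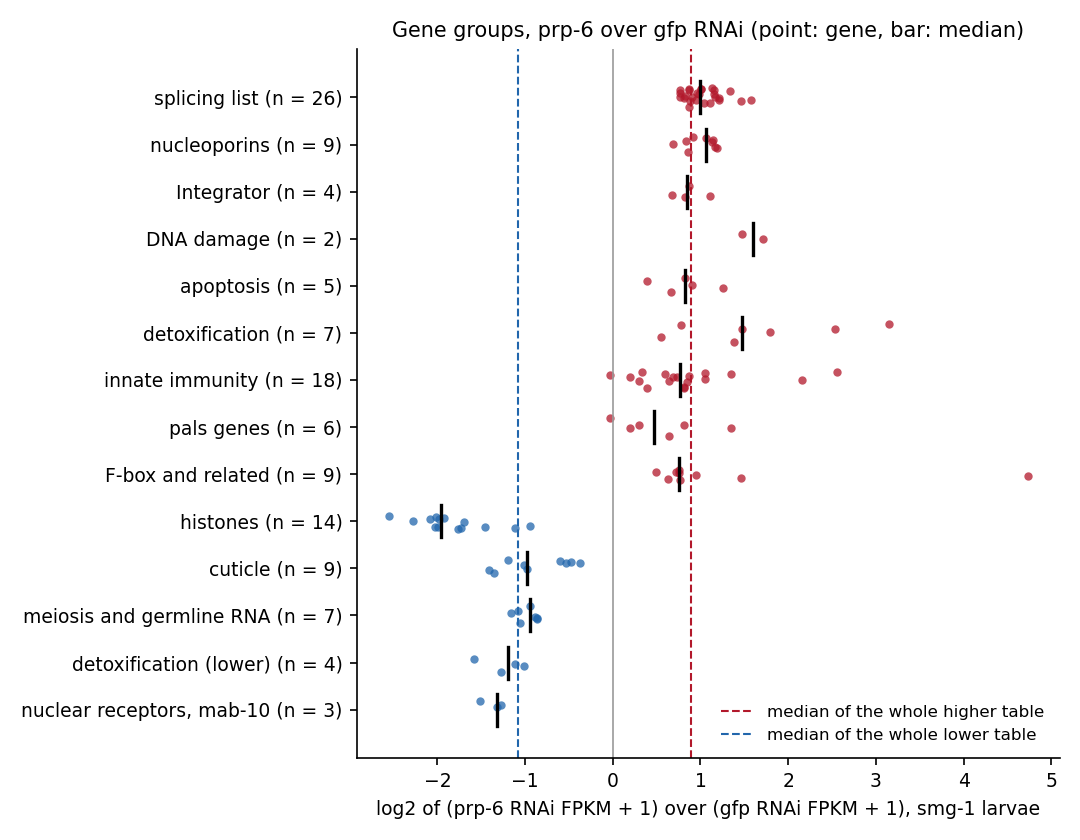
Log2 of (prp-6 RNAi FPKM + 1) over (gfp RNAi FPKM + 1) in smg-1 larvae for the members of 14 gene groups, 1 point a gene, with a black bar at each group's median and dashed lines at the medians of the whole higher (0.89) and lower (−1.08) tables; points are shifted vertically only for legibility. The splicing list forms a narrow band about its median of 1.0, and the histones lie furthest left, with a median of −1.96.

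Transcripts that do not code for protein were also in the higher table. It has 26 pseudogenes, with a median log2 fold of 1.0 and 12 at least 2-fold above gfp (41% in the whole table), beside 121 of 304 protein-coding genes with a median of 0.87. The pseudogenes W05G11.2 and ZK1225.7, named after their values were seen, were 7.26-fold and 7.2-fold above gfp, with 20.4 and 23.7 FPKM with prp-6 RNAi against 1.94 and 2.43 FPKM with gfp RNAi. Of the 2 snoRNA genes, which guide modification of other RNAs, Y53F4B.48 had 80.9 FPKM with prp-6 RNAi, 99.3 with prp-8 RNAi and 15.4 with prp-31 RNAi and is listed at 0 with gfp RNAi. The other, Y23H5B.10, had 34 FPKM with prp-6 RNAi and is also listed at 0 with gfp RNAi. The non-coding RNA gene mrpr-1 was 4.32-fold above gfp. The ribosomal RNA gene rrn-2.1 had 36295 FPKM with prp-6 RNAi, 34627 with prp-8 RNAi and 12191 with prp-31 RNAi, against 4034 with gfp RNAi, in libraries made from poly(A)-selected RNA. The fold of rrn-1.2 is uncertain, because its deposited pooled levels are far below its single-library levels.

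Core histone genes had the lowest median fold of the lists with at least 3 members in the lower table. All 14 histone genes of the lower table were below gfp, 13 of them at least 2-fold (56.1% in the whole table), with a median log2 fold of −1.96 against −1.08 for the whole table. Levels were 0.765 to 38.7 FPKM with prp-6 RNAi and 5.72 to 75.6 FPKM with gfp RNAi. The gene his-38 was 5.87-fold below gfp, with 3.33 FPKM with prp-6 RNAi, 2.67 with prp-8 RNAi and 4.15 with prp-31 RNAi, against 24.4 with gfp RNAi. The 1 member short of 2-fold was his-74, at 38.7 against 75.6 FPKM. It has 2 exons, whereas the other 13 have 1. Most lay in clusters of the deposited intervals, such as his-1 to his-4 and his-59 to his-62, with gaps of 206 to 636 bp within these 2 clusters. For 13 of the 14 the level with prp-6 was above that with prp-8, the exception being his-31. In the whole lower table this held for 86 of 139 genes. Histone genes have near-identical copies, so the value of a single copy is uncertain. Replication-dependent histone mRNAs in animals end in a stem-loop rather than a poly(A) tail, and rRNA also lacks the usual tail; the rrn-2.1 level differed between the same 2 libraries, and the part of tail selection in either result was not tested.

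Genes of the germline marker list were in the lower table and not in the higher one. The list had 4 genes there, which summed to 13.6 FPKM with prp-6 RNAi and 31.2 FPKM with gfp RNAi; none is listed at 0. The meiotic chromosome axis genes htp-1 and htp-2 were 2.08-fold and 2.12-fold below gfp, the synaptonemal complex gene syp-1 1.85-fold and the spermatogenesis regulator cpb-1 1.82-fold. With daz-1, cey-3 and iff-1, named after values were seen, these made 7 genes with a median log2 fold of −0.95, against −1.08 for the whole lower table. Of the 7, 3 were at least 2-fold below gfp, beside 56.1% of the table. The 3 genes named after values were seen are all of the lower table, so this set is no balanced count. Germline genes outside these lists were not sought as a set in either table. Some lay on the other side: in the higher table, the eggshell gene cpg-2 was 1.83-fold and the germline small RNA gene pid-2 2.90-fold above gfp. The germline translation factor gene iff-1 (T05G5.10, chromosome III) was 2.23-fold below gfp, at 224 FPKM with prp-6 RNAi, 171 with prp-8 RNAi and 308 with prp-31 RNAi, against 500 with gfp RNAi, and its neighbour cdk-1, the mitotic kinase gene 238 bp away, was 1.78-fold below. The oogenesis gene daz-1 was 1.82-fold below gfp. In whole larvae, fewer cells of a type and less RNA per cell cannot be told apart. Of the other marker lists, 3 neuron genes (ins-20, ins-35 and unc-53, 98.2 FPKM in sum with prp-6 RNAi against 40.4 with gfp RNAi) and 2 intestine genes (lys-1 and vit-6) were in the higher table, and no muscle or hypodermis marker was in either table; the part of cell numbers in any result was not tested.

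Cuticle and moulting genes were split. Of the cuticle list, 9 genes were in the lower table, 4 of them at least 2-fold below gfp, beside 56.1% of the whole table, with a median log2 fold of −0.98 against −1.08. The cuticle collagen gene dpy-9 had 102 FPKM with prp-6 RNAi, 254 with prp-8 RNAi and 120.5 with prp-31 RNAi, against 273 with gfp RNAi. For col-128 the levels were 23.5 FPKM after prp-6, 51.4 after prp-8 and 23.1 after prp-31 RNAi, against 61.5 after gfp RNAi. In these 2 collagen genes the prp-8 level lay near gfp and the prp-6 level well below it. The table was chosen on the pooled knockdowns, so a listed gene near gfp with prp-8 would as a rule be low with another clone. The moulting protease gene nas-37 was 2.01-fold below gfp, and mltn-1 and mltn-9, relatives of the moulting gene mlt-10, were 2.55-fold and 2.16-fold below it. In the higher table, 5 members of the list had a median log2 fold of 0.56; they include dpy-22, a Mediator subunit gene that the name pattern caught, and the hedgehog-related wrt-8, 3.63-fold above gfp.

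Other genes of the lower table include the 2 with the largest folds. The thioredoxin-domain gene txdc-12.2 (F49H12.5, chromosome X, deposited interval 2074448 to 2075944) had 3.27 FPKM with prp-6 RNAi, 22.3 with prp-8 RNAi and 27.8 with prp-31 RNAi, against 53.9 with gfp RNAi. It stood 12.9-fold below gfp with prp-6, and its prp-8 level was 5.47-fold above its prp-6 level. The unnamed gene D1086.3 had 7.29 FPKM after prp-6, 11.8 after prp-8 and 28.3 after prp-31 RNAi, against 58.0 after gfp RNAi. The aspartyl protease gene asp-12 was 4.01-fold below gfp, and lips-6, which encodes a lipase-like protein, 3.25-fold. All 3 members of the nuclear receptor list there were at least 2-fold below gfp, beside 56.1% of the whole lower table. The folds below gfp were 2.85 for nhr-155, 2.43 for nhr-172 and 2.51 for mab-10, a transcription cofactor of the larval-to-adult switch. The replication factor gene psf-3, a GINS subunit, was 2.52-fold below gfp.

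Between the 3 knockdowns of the smg-1 strain, prp-6 stood in the middle for most genes. Because they share the gfp library, the knockdowns were compared first by their levels. The counts over gfp given below all rest on that 1 gfp library and are a description only. The tables were chosen on the 3 knockdowns pooled against gfp. A listed gene near gfp with 1 clone would thus as a rule lie further from it with another, so such contrasts are partly built in. In the higher table, 285 of 346 genes had their highest level with prp-8, the next with prp-6 and the lowest with prp-31, and the median level was 15.8 FPKM in the prp-6 library, 25.2 in the prp-8 library and 10.2 in the prp-31 library. Each knockdown's own count at least 2-fold above gfp was 142 in the prp-6, 295 (85.3%) in the prp-8 and 23 (6.65%) in the prp-31 library. In the lower table the counts at least 2-fold below gfp were 78 in the prp-6, 99 (71.2%) in the prp-8 and 55 (39.6%) in the prp-31 library. There prp-6 lay between the other knockdowns less regularly. Of 139 genes, 66 had the order prp-31, prp-6, prp-8 from high to low, and 17 had the reverse order. In 34 genes prp-6 was the lowest of the 3 and in 20 the highest.

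The direct ratio of prp-6 to prp-8 set apart a few genes. In the higher table, 13 genes (3.76%) were at least 2-fold above their prp-8 level and 87 (25.1%) at least 2-fold below it; in the lower table it was 17 (12.2%) and 5 (3.6%). The 13 include npp-1 and B0464.6, which are listed at 0 with prp-8. The gene dct-5 (F07F6.5), named as a target of the insulin-pathway factor DAF-16, had 39.2 FPKM with prp-6 RNAi, 0.836 with prp-8 RNAi and 22.5 with prp-31 RNAi, against 10.1 with gfp RNAi, so prp-6 was 21.9-fold above prp-8. The antimicrobial-like peptide gene nlp-34 had 419.7 FPKM with prp-6 RNAi, 53.3 with prp-8 RNAi and 123 with prp-31 RNAi, against 93.0 with gfp RNAi. For pqn-63, which encodes a glutamine and asparagine-rich protein, the levels were 22.3 FPKM after prp-6, 5.61 after prp-8 and 16.4 after prp-31 RNAi, against 7.70 after gfp RNAi. In dct-5, nlp-34 and pqn-63 the prp-8 level was below gfp and the prp-6 and prp-31 levels above it. The genes idpc-2 and cest-1.1, a carboxylesterase gene, had the same order, with prp-6 levels 3.64-fold and 2.60-fold above prp-8. The prp-6 level of wrt-8 was 2.23-fold above prp-8, and those of the sodium-proton exchanger gene nhx-6 and of idpa-3 were 2.37-fold and 2.36-fold above it.

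At the other end were genes near gfp with prp-6 and well above it with prp-8. The collagen gene col-101 had 3.15 FPKM with prp-6 RNAi, 26.3 with prp-8 RNAi and 3.36 with prp-31 RNAi, against 2.55 with gfp RNAi. The claudin-like genes clc-32 and clc-11, 1405 bp apart on chromosome V, had prp-8 levels 5.55-fold and 3.70-fold above their prp-6 levels. The prp-8 level of the C-type lectin gene clec-45 was 4.01-fold above its prp-6 level. For the SCP-family gene scl-2 the prp-6 level was 83.4 FPKM and the prp-8 level 318 FPKM, against 49 with gfp RNAi. The 5 genes of the higher table that were below gfp with prp-6 are frk-1, pals-32, Y49G5A.1, Y41G9A.5 and K03D3.2, at log2 folds of −0.01, −0.03, −0.17, −0.57 and −0.76. All 5 had their highest level with prp-8. For K03D3.2 the levels were 2.23 FPKM with prp-6 RNAi, 44.2 with prp-8 RNAi and 3.65 with prp-31 RNAi, against 4.46 with gfp RNAi. The higher table was chosen on the pooled knockdowns against gfp. A gene near or below gfp with prp-6 could as a rule enter it only through a high level with another clone. The contrast with prp-8 in such genes is therefore largely built in and is no separate result.

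In the lower table, peroxisome and lipid genes stood nearer gfp with prp-6 than with prp-8, in a group of 6 chosen after values were seen. All 6 had the higher level with prp-6, as did 86 of 139 genes in the whole lower table. The same choice of genes has 2 members in the higher table, lips-11 and acox-1.2. Both were at least 2-fold above gfp with prp-6, beside 41% of that table. The peroxisome division gene prx-11 had 81.5 FPKM with prp-6 RNAi, 32.9 with prp-8 RNAi and 139 with prp-31 RNAi, against 170.1 with gfp RNAi. The acyl-CoA synthetase gene acs-7 was 1.5-fold and the peroxisomal transporter gene pmp-5 was 1.40-fold below gfp, and their prp-6 levels were 2.22-fold and 2.58-fold above their prp-8 levels. The chondroitin proteoglycan gene cpg-9 had 100.1 FPKM with prp-6 RNAi, 24.3 with prp-8 RNAi and 129.8 with prp-31 RNAi, against 184 with gfp RNAi. Against prp-31, prp-6 was the stronger contrast in the higher table, with 46 genes (13.3%) at least 2-fold above their prp-31 level and 0 (0%) at least 2-fold below it; in the lower table it was 4 (2.88%) and 10 (7.19%).

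**Figure D4:**
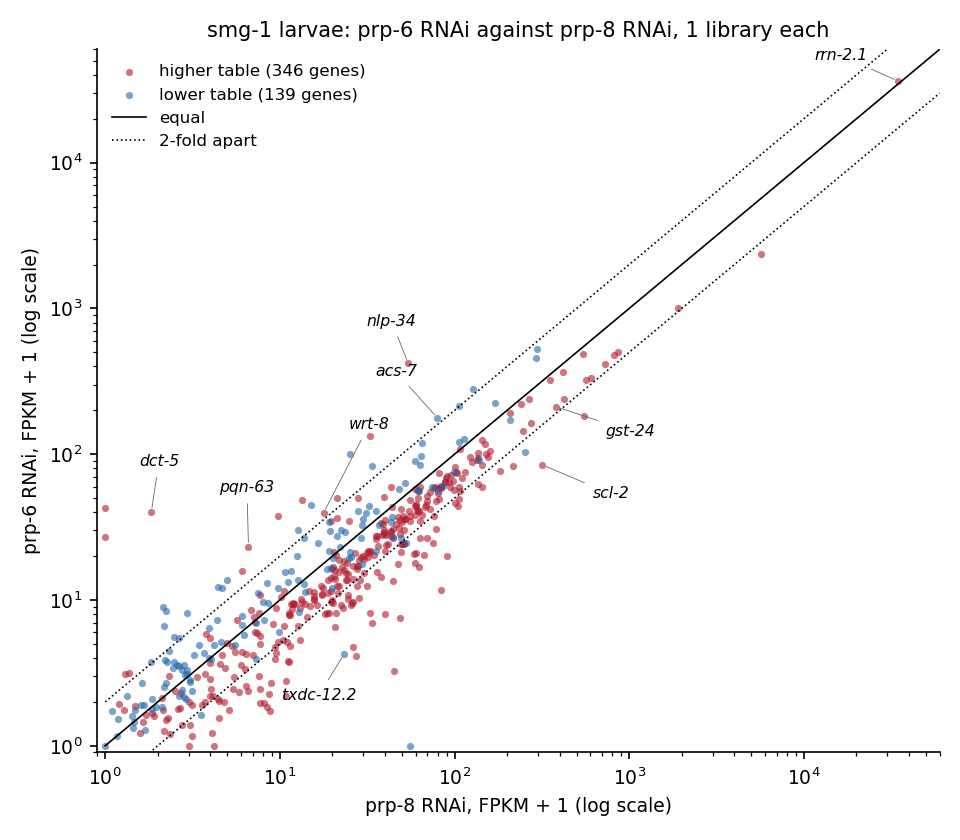
Level of the 485 genes in smg-1 larvae with prp-6 RNAi (vertical axis) against prp-8 RNAi (horizontal axis), in FPKM + 1 on log axes, 1 library each; the solid line marks equal levels and the dotted lines a 2-fold difference. Most of the higher table (red) lies below the solid line, 37 of its 346 genes lie above it, and dct-5, nlp-34 and pqn-63 lie above the upper dotted line.

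The question of what the loss of smg-1 alters in the response to prp-6 RNAi can be put only to genes that the submitters listed in both strains, since no other gene has values in both. There are 147 such genes, and each strain has its own gfp library. Of the smg-1 higher table, 124 genes (35.8%) are in the N2 higher table, where they make up 30.3%. For these the median log2 fold with prp-6 was 1.12 in smg-1 and 1.28 in N2, with a median difference, smg-1 minus N2, of −0.19. At least 2-fold above gfp were 77 of the 124 in smg-1 (41% in its whole higher table) and 91 in N2 (83.9% in its own). The fold was larger in smg-1 for 41 genes and in N2 for 83. After 6 genes with a value listed at 0 in a library compared were left out, 91 of 118 genes had folds within 1.5-fold of each other in the 2 strains. Across these 118 genes, which come from 2 pairs of libraries and are no replicates, Pearson's r was 0.83 and Spearman's rho 0.59, given as a description. The 222 genes of the higher smg-1 table that are in no N2 table had a median log2 fold of 0.80. Of them, 65 were at least 2-fold above gfp, beside 41% of the whole smg-1 higher table.

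The spliceosome groups had 18 genes with values in both strains, with median log2 folds of 1.16 in smg-1 and 1.51 in N2. The fold was larger in N2 for 14 of the 18, beside 83 of all 124 genes higher in both strains, so this was common to most shared genes. The widest gap among them was that of isy-1, a gene of the catalytic stage, with 57.3 FPKM with prp-6 RNAi against 24.9 with gfp RNAi in smg-1, and 94.7 against 26 FPKM in N2. The gfp levels of isy-1 were thus close in the strains, and the prp-6 level was lower in smg-1. No gene of the U2 and Sm group was in the N2 higher table. Of the 4 detoxification genes higher in both strains, gst-24 had a fold of 8.87 in smg-1 and 9.63 in N2, pgp-8 5.81 and 5.22, ugt-39 2.61 and 3.52, and gst-15 3.46 and 2.40. The gene fbxa-163 was 26.6-fold and 27.1-fold above gfp. With values listed at 0 left aside, the widest strain gaps of publicly named genes higher in both strains were those of wrt-8, with folds of 3.63 in smg-1 and 9.12 in N2, and of nlp-34, with 4.48 and 8.95. In the other direction the widest was that of gst-15. The nucleoporin gene npp-5 and B0464.6 are listed at 0 in the N2 prp-6 library, against 18.7 and 22.2 FPKM with gfp RNAi in N2, and had 35.9 and 42.1 FPKM with prp-6 RNAi against 15.7 and 21.1 with gfp RNAi in smg-1. Their strain difference is uncertain.

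Of the lower table, 17 genes (12.2%) are also in the N2 lower table, where they are 25.8% of 66. Their median log2 fold was −1.33 in smg-1 and −1.73 in N2, and in 14 of the 17 the genes stood further below gfp in N2. At least 2-fold below gfp were 11 of the 17 in smg-1 (56.1% in its whole lower table) and 17 in N2 (93.9% in its own). The gene daz-1 had 8.70 FPKM with prp-6 RNAi against 16.7 with gfp RNAi in smg-1, and 4.55 against 16.4 FPKM in N2. The gene epic-2 was 1.84-fold below gfp in smg-1 and 5.28-fold in N2, and fbxa-14 1.92-fold and 2.90-fold. For mab-10 the folds below gfp were 2.51 in smg-1 and 2.68 in N2, close to each other. Of the 14 histone genes only his-32 is in the N2 lower table, 4.85-fold below gfp in smg-1 and 4.28-fold in N2, and the others have no N2 values here.

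A set of 6 genes lay on opposite sides in the strains, lower in smg-1 and higher in N2. They are grl-5 and mlt-10, a hedgehog-related gene and a gene needed for moulting, lips-9, H23N18.5, C38C6.3 and ZC434.3. Moulting genes of this kind are transcribed in pulses, once in each larval stage. The gene grl-5 had 118 FPKM with prp-6 RNAi against 153 with gfp RNAi in smg-1, and 201 against 14.8 FPKM in N2. For mlt-10 the levels were 120.2 against 174 FPKM in smg-1, and 145 against 28.1 FPKM in N2. In all 6 the gfp levels were further apart between the strains than the prp-6 levels: the median log2 ratio of smg-1 to N2 was 2.88 for gfp and −0.75 for prp-6. All 6 were under 2-fold below gfp with prp-6 in smg-1 (median log2 fold −0.36) and at least 2-fold above it in N2 (median 3.38). The stage within L3 at which each library was taken is not given, and its part in these values was not tested.

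**Figure D5:**
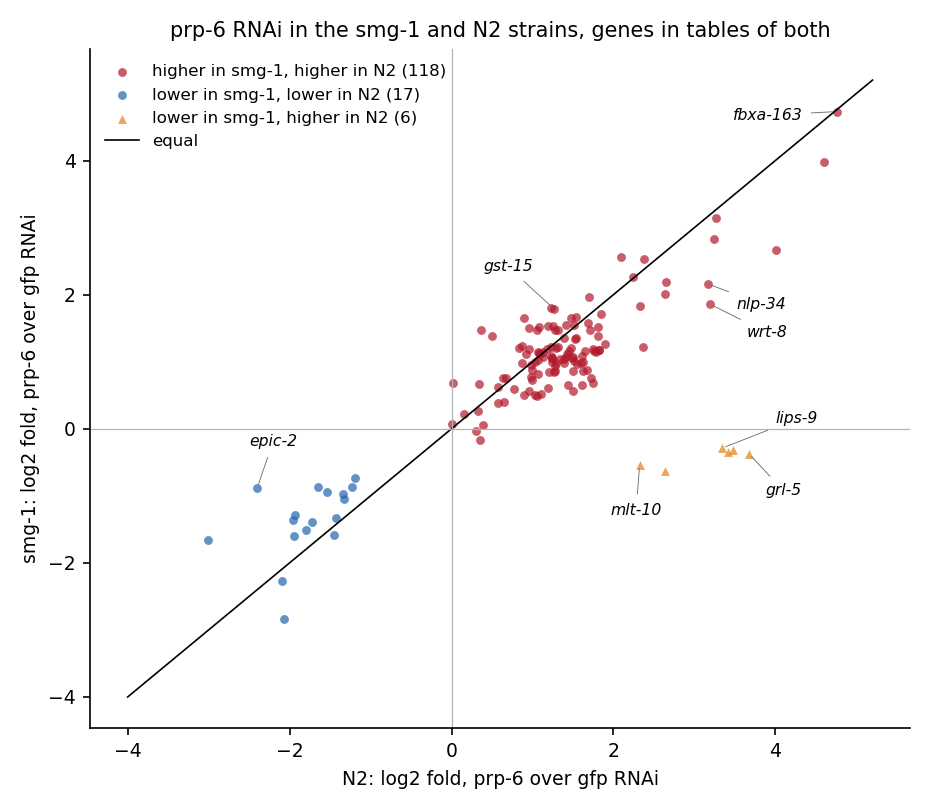
Log2 fold of prp-6 over gfp RNAi in smg-1 larvae (vertical axis) against the same in N2 larvae (horizontal axis), on FPKM + 1, for 118 genes higher in both strains (red), 17 lower in both (blue) and 6 lower in smg-1 and higher in N2 (orange triangles), 1 library per group; 6 shared genes with a value listed at 0 are left out and the line marks equal folds. More red points lie below the line than above it, and the 6 triangles lie at log2 folds of −0.63 to −0.29 in smg-1.

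Gene structure was compared with the annotation, since Prp6 is part of the machinery that removes introns. All 304 protein-coding genes of the higher table and all 136 of the lower have an exon number in the Ensembl annotation, and the median is 5 exons in both tables and in the 19982 annotated protein-coding genes. In the higher table the median log2 fold with prp-6 was 1.54 for 8 genes with 1 exon, 0.93 for 114 genes with 2 to 4, 0.89 for 129 with 5 to 9 and 0.79 for 53 with 10 or more. The single-exon bin is thinly filled, and F19B10.13, with 55.9 FPKM with prp-6 RNAi against 2.61 with gfp RNAi, is in it. In the lower table, 16 genes have 1 exon, 11.8% of its protein-coding genes against 3.49% of those annotated, and 13 of the 16 are histone genes. Their median log2 fold was −1.96, against −1.03 for the 50 genes with 2 to 4 exons, −0.98 for the 60 with 5 to 9 and −1.05 for the 10 with 10 or more.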

How the data were processed

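Whole-larva RNA was enriched for poly(A) and sequenced in pairs of 73 bp reads on the HiSeq platform of Illumina, per the labels' protocols. Cufflinks and Cuffdiff were used, per the submitters' processing notes; no source used here names their versions, the aligner, the annotation or the genome build. The deposited tables hold, per the file headers, an FPKM per library and for pooled libraries, log2 fold changes, and a q-value beside each P-value; the largest deposited P is 0.01. A test statistic, a score, is deposited in most tables and was not used. An FPKM of 0 can be a failed estimate. Apart from that, 11 smg-1 genes, some with a 0 and others without, have pooled and single-library FPKM over 2-fold apart.

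From the FPKM, log2((prp-6 + 1)/(gfp + 1)) was computed per gene, with a pseudocount of 1 FPKM, which understates the change of low genes, and no filter; direct ratios to prp-8 and prp-31 and the N2 folds were computed alike. Log2 folds over gfp, medians and counts at least 2-fold were summarised per table and per gene list. Samples were grouped by the labels, and no test was made. Strand-specific counting is not stated, so overlapping genes, such as Y80D4G.1 and T04A6.5, cannot be told apart. Names come from the tables or RefSeq (481 of 485 matched, WBcel235; 74 named by RefSeq alone), and 1 name that a spreadsheet had made a date was restored from its gene ID; exon numbers come from Ensembl release 115. Deposited intervals are given as deposited and often span part of a gene.

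The 485 genes, 32 gene lists and the rule for named genes were chosen with earlier results of these data known, and 12 further lists after seeing the values. The text names genes from these, not all of them: per table, the 15 public-name genes with the largest prp-6 fold, the 4 leading members of each list with at least 3 members, all target, apoptosis and DNA damage members, the 8 largest and 8 smallest prp-6 to prp-8 ratios, genes against the table's direction, those differing most between strains and the 3 largest folds of genes with a sequence name only; others are said to be chosen after their values were seen. Alternatives were a pseudocount of 0.1 FPKM, a mean of at least 1 FPKM, folds shifted to the scale of the pooled columns, and genes with a 0 left out. The code was tested on simulated data. Computations ran in Python 3.11.15 with pandas 2.3.3 and numpy 2.4.6, and figures were drawn with matplotlib 3.10.9.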

Additional observations from a re-analysis of the deposited data

Results flagged for a closer look

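With prp-6 RNAi, 8 genes with values above 0 in both strains lay on opposite sides of gfp in smg-1 and N2, apart from npp-5 and B0464.6, which are listed at 0 in the N2 prp-6 library; with 1 library per group, the difference was not tested. Differences are the log2 fold in smg-1 minus that in N2. The 6 genes lower in smg-1 and higher in N2 differed by −4.05 for grl-5, −3.79 for H23N18.5, −3.75 for C38C6.3, −3.63 for lips-9, −3.27 for ZC434.3 and −2.86 for mlt-10. The other 2 are in both higher tables and were just below gfp with prp-6 in smg-1: Y49G5A.1 differed by −0.52 and the pals gene pals-32 by −0.33.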

How the results depend on the processing

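The counts and the strain difference kept their direction and stayed within 1.5 times or 0.1 log2 under every alternative: 137 to 194 higher genes at least 2-fold above gfp, 78 to 95 lower genes at least 2-fold below it, 28 to 40 genes at least 2-fold above prp-8 and 89 to 115 at least 2-fold below it, and a median strain difference of −0.27 to −0.14. A pseudocount of 0.1 FPKM moved the table medians to 1.07 (higher) and −1.23 (lower), and with it 13 of 32 list medians and 63 of 123 named genes by more than 0.1 log2, none reversed; a smaller pseudocount widens the folds of low genes by construction. Requiring a mean of at least 1 FPKM moved 3 list medians. The shift to the pooled scale was −0.03 log2 in smg-1 and −0.08 in N2 and was not applied to ratios between knockdowns. Leaving out a replicate could not be run, and depth limits low genes most, since 61 higher genes had under 1 FPKM with gfp. No paired analysis was possible because each group has 1 library.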
